A study of Mus musculus with 8 samples.

Results

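The genes of the mitochondrial ribosome were measured in whole mouse kidney after cinacalcet and in kidney of mice on standard chow. They were chosen by symbol: every gene named Mrpl or Mrps followed by a number whose RefSeq accession was carried by a non-control probe. The 78 such genes were 78 of 20660 genes with a named probe, 49 of them Mrpl genes of the large subunit and 29 Mrps genes of the small subunit. All 78 had a probe, 56 had 1 and 22 had 2. Of the 78, 77 passed the filter on dim probes, 48 large and 29 small, and each of these 77 was well above background on all 8 arrays. The exception was Mrpl21, whose only probe was not well above background on any of the 8 arrays, so it has no measured difference.

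The study asked what the calcimimetic cinacalcet does to gene expression in the kidney. Cinacalcet HCl activates the calcium-sensing receptor, which in kidney is best known from the thick ascending limb. The control group was 4 kidney samples of male mice, 12 weeks old, on standard chow. The cinacalcet group was 4 kidney samples of male mice, also 12 weeks old, given cinacalcet for 5 days at a dose worded as 1 mg per g body weight. The labels state diet as the factor, with 5 days on it in both groups, and give no strain and no genetic change. They also do not say whether the samples are separate animals, so a p-value here reflects only how far these samples scatter. Total RNA of each sample was hybridised to 1 single-colour Agilent array. A level below is the log2 intensity of a probe minus the log2 of the 75th percentile of its array, and a difference is cinacalcet minus control in log2 units, with the adjusted p of limma over all genes tested.

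Mitochondria keep a ribosome of their own, which makes the few proteins encoded by mitochondrial DNA, all of them subunits of the respiratory chain and of ATP synthase. Its RNA comes from mitochondrial DNA, but every one of its proteins is encoded in the nucleus, made in the cytosol and imported. Some of these proteins have bacterial counterparts and others exist only in mitochondrial ribosomes. Kidney tubules, above all the proximal tubule and the thick ascending limb, are among the tissues richest in mitochondria, since sodium reabsorption runs on ATP.

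All 8 arrays lay on 1 slide. Between 51.8% and 58.0% of spots were well above background, and 4 arrays per group limit the precision. All 8 proximal tubule markers and all 5 thick ascending limb markers were above background on every array. The arrays control 4, cinacalcet 2 and cinacalcet 3 stood apart: none of 4 Y-linked genes (Ddx3y, Eif2s3y, Uty, Kdm5d) was well above background there, against 3 or 4 of them on each other array, although every mouse is given as male. Counts for the family and the genes that passed the test are given with and without these arrays.

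Most mitochondrial ribosomal protein genes gave slightly lower levels with cinacalcet, but few single genes passed the test. After adjustment 5 of 77 fell and 0 rose. The 5 were Mrps21, Mrpl1, Mrpl34, Mrpl42 and Mrps16, by 1.20-fold to 1.34-fold. That is 6.49% of the family, where 4.64% of all 14209 genes tested fell and 3.37% rose, so the share of single genes that passed was close to that of all genes. The estimate was negative for 73 of the 77 genes, or 94.8%, against 54.6% of all genes tested. With quantile normalization in place of the 75th percentile it was negative for 61 of the 77, against 51.8% of all genes. The median difference over the family was -0.17, equal to a 1.12-fold lower intensity, with quartiles of -0.24 and -0.09 and a range from -0.43 to 0.27. The median over all genes tested was -0.03. The median standard error of a member was 0.09. At an unadjusted p under 0.05, 25 members were lower and 1 was higher, where 16.3% and 11.6% of all genes were. In bulk kidney, fewer cells of a type and less RNA per cell cannot be told apart.

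**Figure D1:**
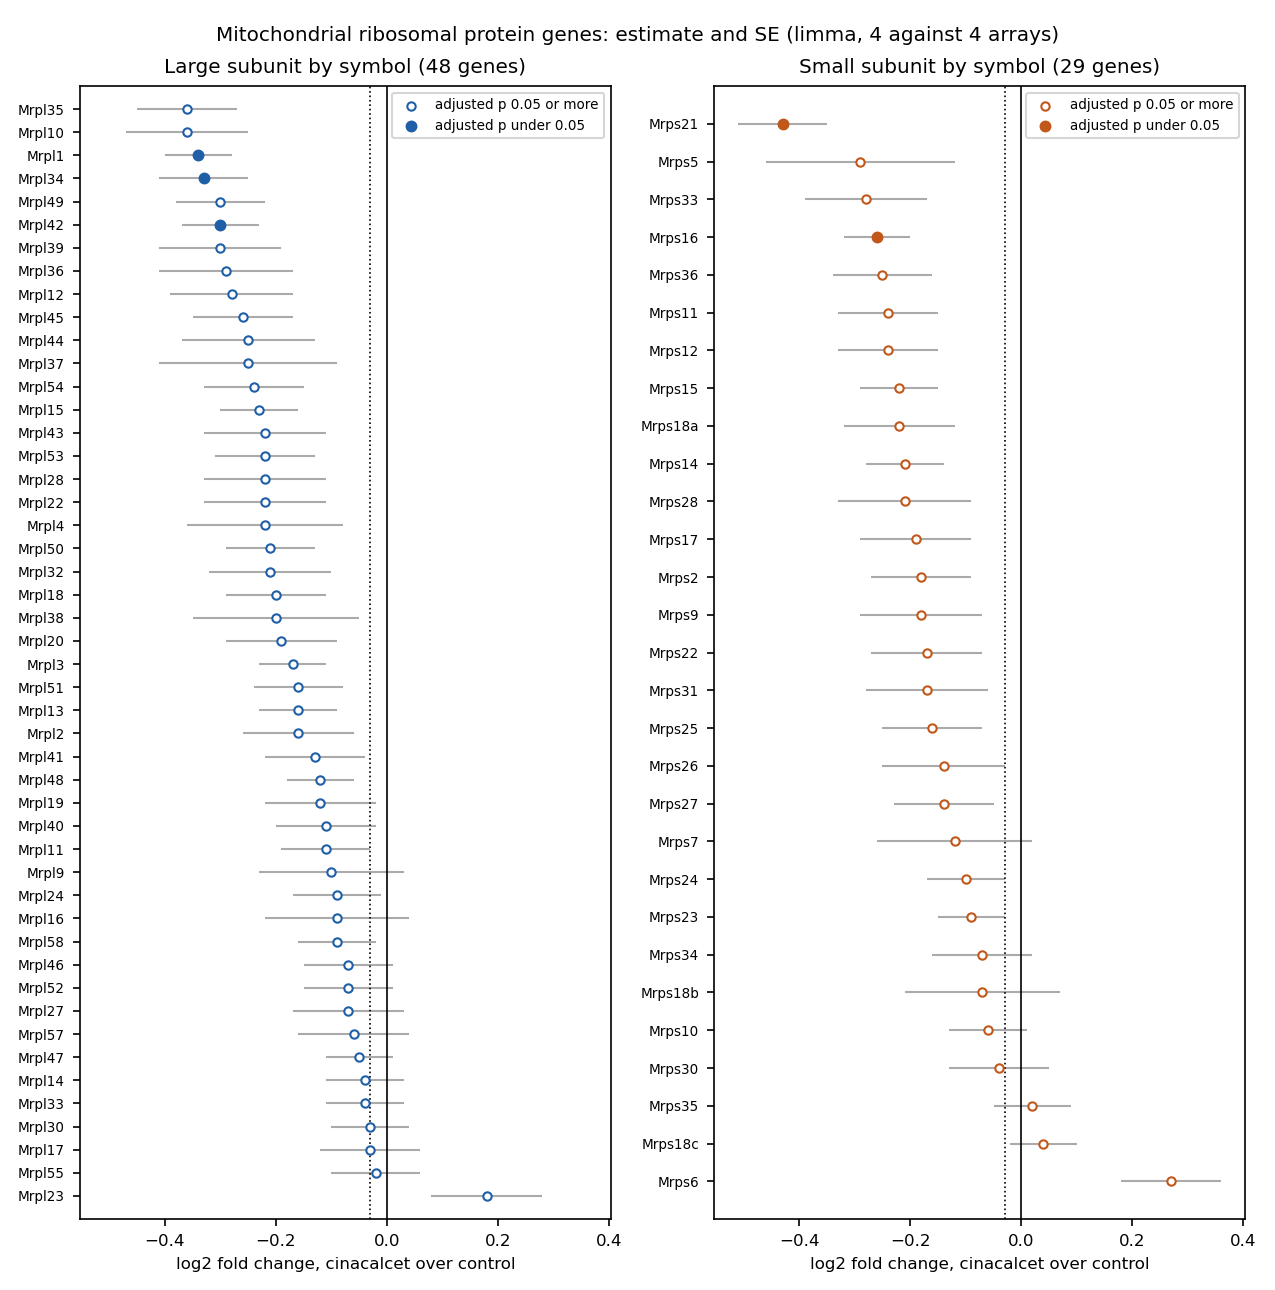
Log2 difference, cinacalcet minus control, of each of the 77 tested genes (x axis) with its standard error from limma over 4 against 4 arrays, ordered by size, large subunit on the left and small subunit on the right. Filled points passed an adjusted p of 0.05, the solid line marks 0 and the dotted line marks the median of all genes tested, -0.03; 73 of the 77 points lie left of 0 and 5 are filled.

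The large and small subunits gave nearly the same differences. Among large subunit genes 3 of 48 fell, the median difference was -0.18 and 47 of 48 estimates were negative. Among small subunit genes 2 of 29 fell, the median was -0.17 and 26 of 29 estimates were negative. The difference between the medians was -0.01, and from array to array the typical large subunit gene stood apart from the typical small subunit gene by -0.01 to 0.02 only. Structures of the mammalian mitochondrial ribosome place the proteins of Mrps30 and Mrps18a in the large subunit, against their names, and Mrps36 has since been assigned to the oxoglutarate dehydrogenase complex. With Mrps30 and Mrps18a moved, the large subunit median was -0.18 over 50 genes. With those 2 and Mrps36 left out, the small subunit median was -0.17 over 26 genes.

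**Figure D2:**
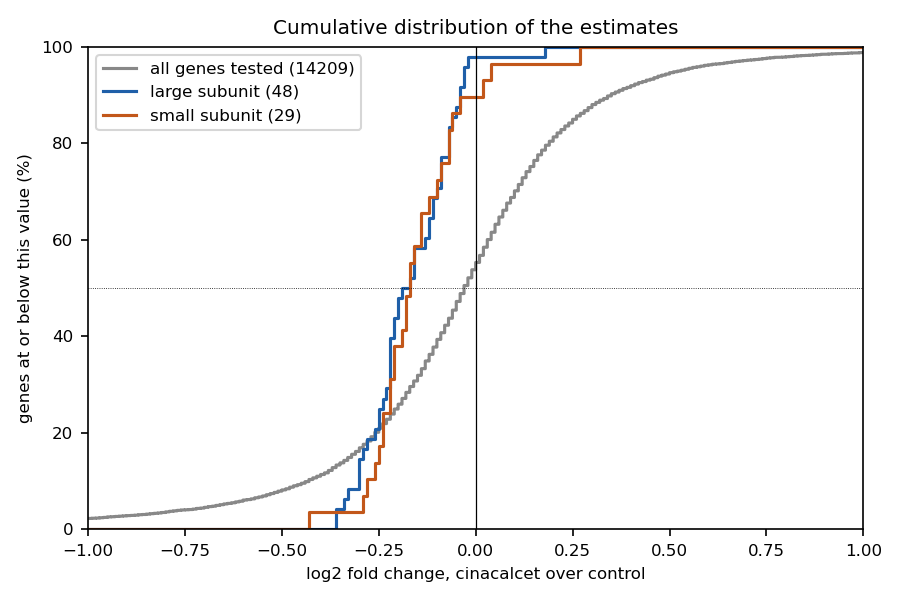
Cumulative share of genes (y axis, percent) at or below a given log2 difference, cinacalcet minus control (x axis), for the 48 large subunit genes, the 29 small subunit genes and all 14209 genes tested. The curves of both subunits run together and cross 50% at -0.18 and -0.17, while that of all genes crosses at -0.03 and is wider on both sides.

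The small shift was not the same on every array of a group. Against each gene's own mean over the 8 arrays, the median deviation of the 77 genes was 0.11, 0.21 and 0.14 on controls 1 to 3 but -0.13 on control 4. On cinacalcet 1 to 4 it was -0.03, -0.13, -0.11 and -0.06. Over all genes tested the same medians lay between -0.04 and 0.04. Controls 1 to 3 were therefore the high arrays, and control 4 lay with the cinacalcet arrays: it was the lowest control for 67 of the 77 genes, and for 64 it lay at or below the highest cinacalcet array. Levels of controls 1 to 3 were all above every cinacalcet array for 60 members, or 77.9%, against 25.6% of all genes tested. Control 4 was set aside for this count after its low values in the family were seen, so part of that gap follows from the choice. Among the 3 arrays without Y-linked signal the family differed little between control 4, at -0.13, and cinacalcet 2 and 3, at -0.13 and -0.11. Among the 5 arrays with it, the controls were at 0.11, 0.21 and 0.14 and the cinacalcet arrays at -0.03 and -0.06.

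**Figure D3:**
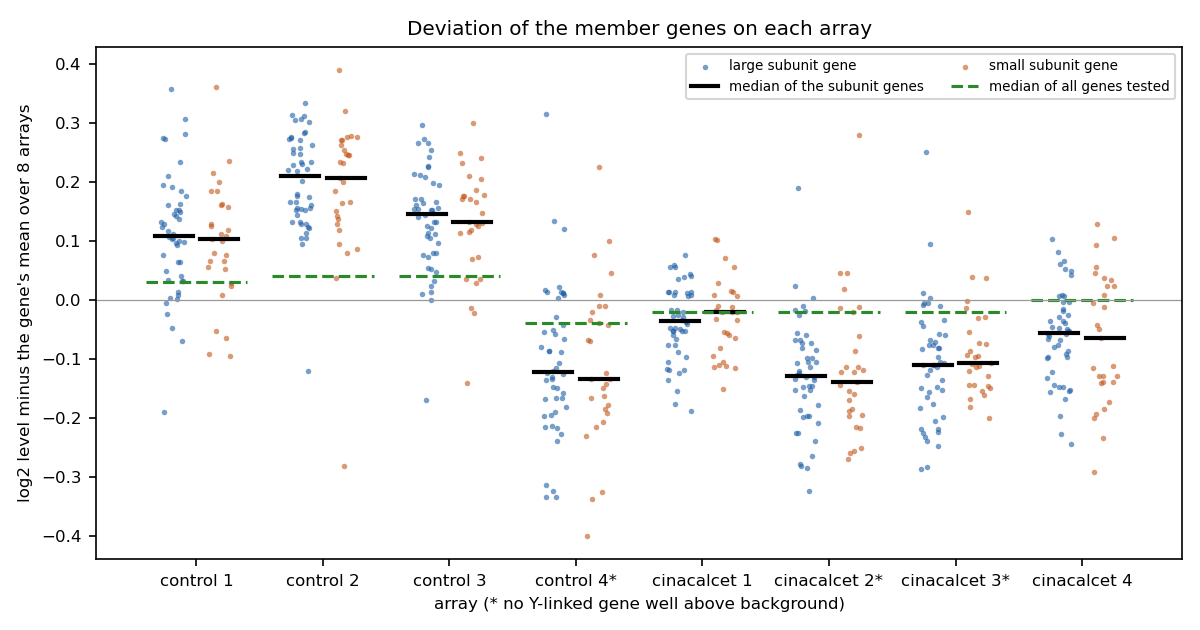
Log2 level of each tested gene minus its own mean over the 8 arrays (y axis), by array (x axis), with large and small subunit genes side by side; black bars are the medians of each subunit, green dashed lines the medians of all genes tested, and an asterisk marks arrays without Y-linked signal. The medians of controls 1 to 3 lie at 0.10 to 0.21, while control 4 lies at -0.12 and -0.13 with the cinacalcet arrays.

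Counts of single genes moved with these arrays. Without control 4, 39 of the 77 genes fell, or 50.6%, where 15.8% of all genes fell, and 1 rose, Mrps6, where 7.85% of all genes rose. Leaving out any other array left 0 to 2 genes lower. With array weights of limma, which gave control 4 the lowest weight, 50 genes fell and 2 rose, where 24% and 14.2% of all genes did. With a block for Y-linked signal 9 genes fell, or 11.7%, where 10.4% of all genes did: the 5 above with Mrpl10, Mrpl15, Mrpl35 and Mrpl49. When only the 5 arrays that carried such signal were fitted, 4 genes fell (Mrpl1, Mrpl10, Mrpl42, Mrps5), where 5.45% of all genes did. In that fit the family median was -0.20 with 74 of 77 estimates negative, against 56.3% of all genes.

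With each gene read by its brightest probe, the gene with the largest difference of the family was Mrps21, which encodes a bacterial-type protein of the small subunit. Its levels were 6.15, 6.42, 6.28 and 6.13 on controls 1 to 4 and 5.88, 5.78, 5.87 and 5.74 on cinacalcet 1 to 4. Every control array was above every cinacalcet array, control 4 included. Mrps21 fell by 0.43 ± 0.08 (SE, n = 4 per group), or 1.34-fold, with an adjusted p of 0.027. The adjusted p was 0.0194 with a block for Y-linked signal, 0.0612 on the 5 arrays with such signal, and reached 0.0862 when single arrays were left out.

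Mrpl1, part of the mobile stalk of the large subunit beside the site where spent tRNA leaves, had the smallest spread within groups of the 5 genes that fell. Its levels were -0.14, -0.15, -0.13 and -0.19 on controls 1 to 4 and -0.50, -0.46, -0.50 and -0.52 on cinacalcet 1 to 4. The groups were far apart for their spread, and control 4 was only slightly below the other controls. Mrpl1 fell by 0.34 ± 0.06 (SE), or 1.27-fold, with an adjusted p of 0.0166, and of 0.0414 on the 5 arrays with Y-linked signal. Its adjusted p reached 0.0648 when single arrays were left out.

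Mrpl34 and Mrpl42 are proteins of the large subunit, the former of bacterial type and the latter found only in mitochondrial ribosomes. Mrpl34 was at 4.15, 4.33, 4.32 and 4.07 on the controls and at 3.93, 3.90, 3.83 and 3.90 with cinacalcet. Mrpl42 was at 3.04, 3.12, 2.98 and 2.86 on the controls and at 2.66, 2.75, 2.70 and 2.68 with cinacalcet. In both, control 4 was the lowest control and still above every cinacalcet array. Mrpl34 fell by 0.33 ± 0.08 (SE, adjusted p = 0.0449). Mrpl42 fell by 0.30 ± 0.07 (SE, adjusted p = 0.0465). Their adjusted p reached 0.131 and 0.126 when single arrays were left out. In the fit to the 5 arrays that carry Y-linked signal it was 0.068 for Mrpl34 and 0.0494 for Mrpl42.

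Mrps16, a bacterial-type small subunit protein whose loss in humans causes a mitochondrial disease, was at 4.90, 5.04, 5.00 and 4.91 on the controls and at 4.72, 4.72, 4.74 and 4.64 with cinacalcet. The groups did not overlap. Mrps16 fell by 0.26 ± 0.06 (SE, adjusted p = 0.0484), and with quantile normalization its difference was -0.18, with an adjusted p of 0.104. On the 5 arrays with Y-linked signal its adjusted p was 0.0773. The gene just outside the threshold was Mrpl35, a bacterial-type large subunit protein, at -0.44, -0.16, -0.25 and -0.10 on the controls and -0.57, -0.50, -0.64 and -0.66 with cinacalcet. Its difference was -0.36 ± 0.09 (SE, adjusted p = 0.0503), so Mrps16 and Mrpl35 lay on either side of the threshold with nearly the same p. None of the 5 calls held in all 8 fits that left out 1 array, 4 of them held with quantile normalization, all 5 held with a block for Y-linked signal, and 2 of the 5, Mrpl1 and Mrpl42, held on the 5 arrays with such signal.

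**Figure D4:**
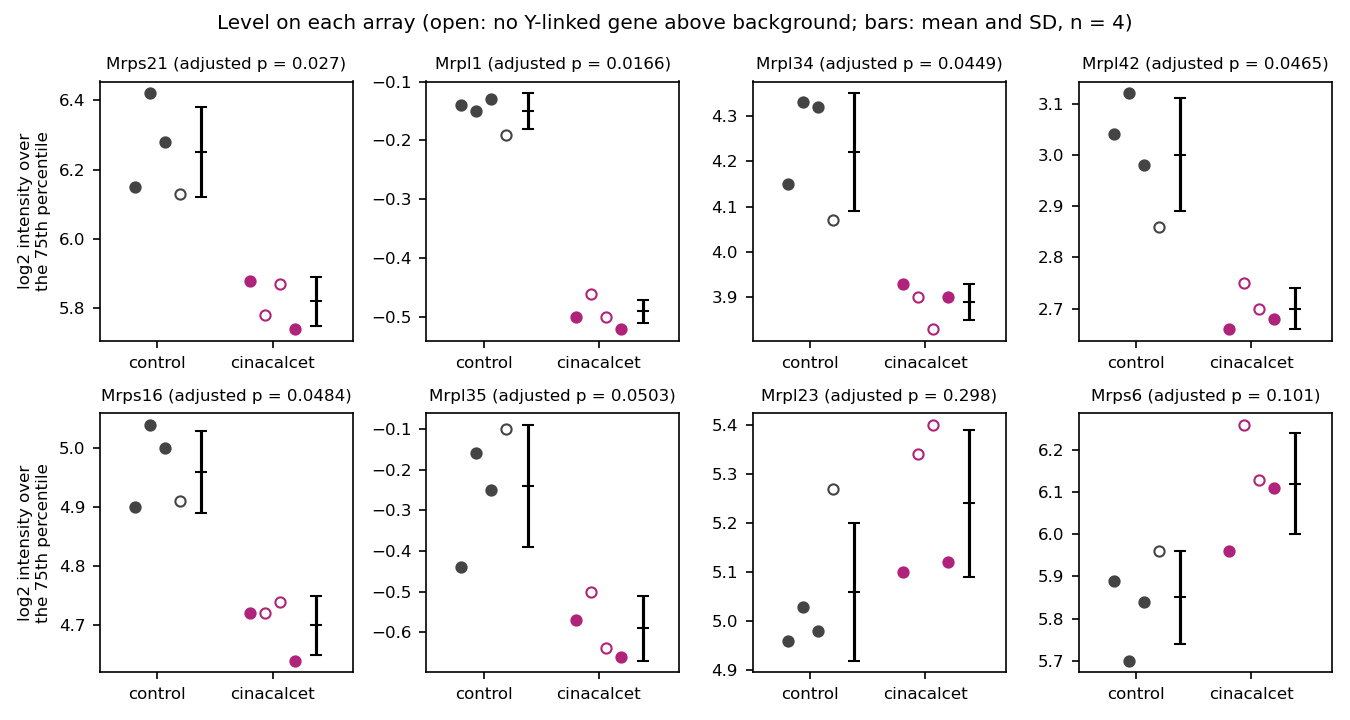
Log2 level over the 75th percentile of the array (y axis, own scale for each gene) for 8 genes on the 4 control and 4 cinacalcet arrays, with mean and SD (n = 4) beside the points; open points are arrays without Y-linked signal. In the top row and in Mrps16 and Mrpl35 every cinacalcet array lies below every control array, while Mrpl23 and Mrps6 have higher means with cinacalcet, 5.24 against 5.06 and 6.12 against 5.85.

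In all, the groups did not overlap for 12 members with lower levels under cinacalcet, or 15.6%, against 9.8% of all genes tested. For 1 member, Mrps6, they did not overlap with higher levels under cinacalcet, where 8.01% of all genes did so. Mrps6, a bacterial-type small subunit protein, was at 5.89, 5.70, 5.84 and 5.96 on the controls and 5.96, 6.26, 6.13 and 6.11 with cinacalcet. Control 4 and cinacalcet 1 were equal at 2 decimals, and the separation rests on less than that. The difference of Mrps6 was 0.27 ± 0.09 (SE, adjusted p = 0.101) and so positive, where 73 of the 77 estimates were negative. The adjusted p was 0.0717 with a block for Y-linked signal and 0.0493 without control 4.

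Only 4 of the 77 estimates were positive, those of Mrps6, Mrpl23, Mrps18c and Mrps35, and none of these genes passed the test. With quantile normalization Mrps6, Mrpl23, Mrps18c and Mrps35 stayed positive and others joined them. Mrpl23, a protein at the rim of the tunnel through which the new chain leaves the ribosome, was at 4.96, 5.03, 4.98 and 5.27 on the controls and 5.10, 5.34, 5.40 and 5.12 with cinacalcet. Its highest control was control 4 and its highest cinacalcet arrays were cinacalcet 2 and 3, the arrays without Y-linked signal. Its difference was 0.18 ± 0.10 (SE, adjusted p = 0.298). Mrps35 differed by 0.02 ± 0.07 (SE, adjusted p = 0.882).

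By role, the proteins with bacterial counterparts and those found only in mitochondria gave like medians. Of bacterial-type large subunit genes 2 of 27 measured (of 28 listed) fell, 26 estimates were negative and the median was -0.17. Of mitochondria-specific large subunit genes 1 of 20 fell, all 20 were negative and the median was -0.20. Of bacterial-type small subunit genes 2 of 15 fell, with a median of -0.19, and of mitochondria-specific ones 0 of 9 fell, with a median of -0.14. The lists overlap with the family, so their counts restate it by role.

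The stalk that receives elongation factors is built from Mrpl10, Mrpl11 and Mrpl12, and none of the 3 passed the test. Mrpl10, the base of the stalk, was at 3.13, 3.17, 3.11 and 2.73 on the controls and 2.72, 2.63, 2.57 and 2.79 with cinacalcet. Controls 1 to 3 were above all cinacalcet arrays and control 4 was among them. The difference was -0.36 ± 0.11 (SE, adjusted p = 0.0872), and the adjusted p was 0.0104 without control 4. Mrpl12, which also binds the mitochondrial RNA polymerase, showed the same layout, at 6.82, 6.92, 6.74 and 6.42 on the controls and 6.51, 6.36, 6.43 and 6.49 with cinacalcet. The difference of Mrpl12 was -0.28 ± 0.11 (SE, adjusted p = 0.15), and that of Mrpl11 was -0.11.

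None of the 6 proteins at the rim of the exit tunnel passed the test, and their median was -0.24 with 5 of 6 negative. Among them Mrpl44, a protein with the fold of an RNA-cutting enzyme, was at 2.30, 2.44, 2.42 and 1.96 on the controls and 2.23, 1.89, 1.99 and 2.01 with cinacalcet. The ranges overlapped through control 4, and the difference was -0.25 ± 0.12 (SE, adjusted p = 0.232). None of the 6 proteins of the central protuberance passed either, with a median of -0.12. Mrpl58, a peptidyl-tRNA hydrolase that became a ribosomal protein, was at 5.68, 5.83, 5.80 and 5.59 on the controls and 5.63, 5.61, 5.67 and 5.62 with cinacalcet. Its groups overlapped, and the difference was -0.09 ± 0.07 (SE, adjusted p = 0.443).

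In the small subunit, Mrps12, which lines the decoding centre, was at 4.60, 4.79, 4.73 and 4.45 on the controls and 4.50, 4.38, 4.39 and 4.32 with cinacalcet, a difference of -0.24 ± 0.09 (SE, adjusted p = 0.129). Its groups overlapped only where control 4 lay below cinacalcet 1. Mrps22, a mitochondria-specific protein tied to inherited disease in humans, was at 2.19, 2.36, 2.26 and 1.98 on the controls and 2.17, 1.97, 2.04 and 1.94 with cinacalcet, with a difference of -0.17 ± 0.10 (SE, adjusted p = 0.303). Mrps36 was at 4.89, 5.10, 5.01 and 4.79 on the controls and 4.79, 4.71, 4.71 and 4.59 with cinacalcet. Its control 4 and cinacalcet 1 were equal at 2 decimals, and its difference was -0.25 ± 0.09 (SE, adjusted p = 0.111).

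The 3 Mrps18 genes are copies of a single bacterial gene whose proteins sit at different places in the ribosome. They gave unlike estimates, none past the threshold: -0.22 ± 0.10 for Mrps18a (SE, adjusted p = 0.179), -0.07 ± 0.14 for Mrps18b (SE, adjusted p = 0.785; 0.02 with quantile normalization) and 0.04 ± 0.06 for Mrps18c (SE, adjusted p = 0.659). Mrps18c had the closest values of the 3, from 3.82 to 3.91 on the controls and from 3.86 to 3.91 with cinacalcet. Differences between these copies were not tested.

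Of the 22 genes with 2 probes, both probes gave negative differences in 19, and the median gap between the probes of a gene was 0.06. In 3 genes the signs differed. The dimmer probes of Mrps7 and Mrpl15 passed the threshold in the fit of 18602 probes. They were at -0.53 ± 0.12 (SE, adjusted p = 0.0434) and -0.45 ± 0.11 (SE, adjusted p = 0.0453). The brighter probes, which stood for Mrps7 and Mrpl15, were at -0.12 and -0.23 and did not pass, so the list of genes that fell depends on the choice of probe. In the same limma fit of 18602 probes the only probe of Mrps16 did not pass (adjusted p = 0.0527). The widest gap was in Mrps25, a mitochondria-specific small subunit protein. Its brighter probe was at 4.87, 5.13, 5.00 and 5.19 on the controls and 4.85, 5.01, 4.89 and 4.78 with cinacalcet, a difference of -0.16 ± 0.09 (SE, adjusted p = 0.289). Its dimmer probe was at -0.89, -0.64, -0.72 and -0.39 on the controls and -0.16, -0.34, -0.30 and -0.01 with cinacalcet, a difference of 0.46 ± 0.12 (SE, adjusted p = 0.0617 among 18602 probes). The probes of Mrps25 thus disagreed in direction, although both are annotated to the same RefSeq transcript, and why they disagree was not tested.

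Proteins of the mitochondrial ribosome that carry other names gave estimates of a similar size. None of the 5 genes Dap3, Chchd1, Aurkaip1, Ptcd3 and Gadd45gip1 passed the test, 4 estimates were negative and the median was -0.15. Ptcd3, a small subunit protein that binds RNA, differed by -0.22 ± 0.09 (SE, adjusted p = 0.147). Aurkaip1, also of the small subunit, differed by -0.18 ± 0.08 (SE, adjusted p = 0.174).

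Genes that work on or with the mitochondrial ribosome gave a few calls, to be read against the 4.64% of all genes that fell and the 54.6% with negative estimates. Of 14 translation factors 2 fell, 0 rose and 10 estimates were negative, with a median of -0.28. Gfm2, an elongation-factor relative that splits the ribosome after termination, was at 2.5, 2.61, 2.63 and 2.34 on the controls and 2.10, 1.93, 1.85 and 1.93 with cinacalcet. Every control array of Gfm2 was above every cinacalcet array, and it fell by 0.57 ± 0.09 (SE, adjusted p = 0.0149). Taco1, an activator of the synthesis of a cytochrome oxidase subunit, was at -0.07, -0.03, 0.01 and -0.55 on the controls and -0.67, -0.77, -0.76 and -0.80 with cinacalcet. Control 4 was the lowest control of Taco1, far from the others, near the cinacalcet arrays but above them, and it fell by 0.59 ± 0.13 (SE, adjusted p = 0.0342).

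Of 22 assembly factors measured (23 listed), 1 fell, 0 rose and 19 estimates were negative, with a median of -0.13. A single call in 22 genes is near the share of all genes. The gene that fell was Ybey, an RNA-cutting enzyme of small subunit maturation, at -0.40, -0.55, -0.49 and -0.63 on the controls and -1.01, -1.28, -1.18 and -0.94 with cinacalcet. The groups of Ybey did not overlap, and it fell by 0.59 ± 0.10 (SE, adjusted p = 0.0156). Of 16 mitochondrial tRNA synthetases measured (17 listed), 1 fell, 0 rose and 13 were negative, with a median of -0.25, again a share of calls near that of all genes. That gene was Vars2, the valine enzyme, at 0.13, 0.27, 0.31 and -0.07 on the controls and -0.32, -0.58, -0.55 and -0.57 with cinacalcet. It fell by 0.66 ± 0.11 (SE, adjusted p = 0.015), with no overlap between groups.

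Among 17 genes of mitochondrial transcription, DNA maintenance and biogenesis 1 fell and 1 rose, 11 estimates were negative and the median was -0.09. Nrf1, a transcription factor of many nuclear genes for mitochondrial proteins, was at 0.25, 0.14, 0.23 and 0.21 on the controls and 0.61, 0.61, 0.93 and 0.53 with cinacalcet. Every cinacalcet array was above every control array, and Nrf1 rose by 0.47 ± 0.10 (SE, adjusted p = 0.0307). Twnk, the helicase of mitochondrial DNA, was at -0.71, -0.73, -0.64 and -1.09 on the controls and -1.28, -1.39, -1.34 and -1.11 with cinacalcet. Control 4 and cinacalcet 4 of Twnk nearly met, and it fell by 0.49 ± 0.11 (SE, adjusted p = 0.0425). When single arrays were left out the adjusted p reached 0.0547 for Gfm2 and Vars2, 0.0559 for Ybey, 0.102 for Taco1, 0.094 for Nrf1 and 0.121 for Twnk. On the 5 arrays with Y-linked signal it was 0.0352 for Gfm2, 0.0358 for Vars2, 0.0353 for Ybey, 0.0246 for Taco1, 0.0388 for Twnk and 0.0518 for Nrf1, whose call was lost there. Without control 4 it was between 0.00617 (Taco1) and 0.0245 (Nrf1) for these 6 genes.

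**Figure D5:**
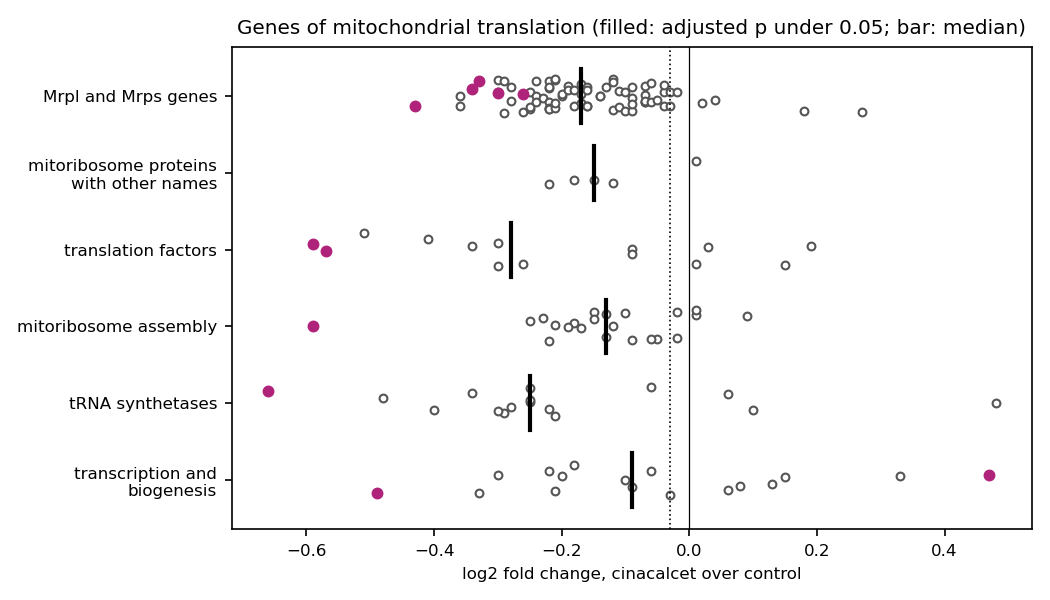
Log2 difference, cinacalcet minus control (x axis), of each measured gene of the family and of 5 related lists (rows); filled points passed an adjusted p of 0.05 in limma, black bars are list medians and the dotted line is the median of all genes tested, -0.03. The list medians run from -0.28 for translation factors to -0.09 for transcription and biogenesis, where Nrf1 at 0.47 is the only filled point right of 0.

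Markers of other cells were set beside these values. The summed level of the proximal tubule markers ranged from 10.15 to 10.38 on control and from 10.12 to 10.37 on cinacalcet arrays, and that of the thick ascending limb markers from 8.86 to 9.16 and from 8.80 to 9.13. These ranges overlapped almost fully, and 1 of the 8 proximal tubule markers and 0 of the 5 thick ascending limb markers fell. The erythroid markers summed to 8.95 to 9.46 on the controls and 6.61 to 8.28 with cinacalcet, and 3 of 4 fell. The immune markers summed to 4.95 to 5.09 and 4.38 to 4.73, and 2 of 5 measured fell. The adipose markers summed to 5.16 to 6.83 and 4.13 to 5.58, 1 of 5 fell, and control 4 was the highest array. The distal convoluted tubule markers summed to 5.34 to 5.88 and 4.58 to 5.47, and 0 of 4 passed, though 2 fell with a block for Y-linked signal. The collecting duct markers summed to 5.91 to 6.33 and 6.28 to 6.49, and 0 of 5 measured passed, with a median difference of 0.31. The podocyte markers summed to 4.64 to 5.17 and 4.19 to 4.87, the endothelial ones to 3.90 to 4.27 and 3.88 to 4.07, and the adrenal ones to -2.21 to -1.72 and -2.13 to -1.56, and none of these passed. The part of these cell types in the differences of the ribosomal protein genes was not tested.

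Genes of similar intensity are given for comparison. Among the 2467 other genes whose mean level lay between 2.85 and 5.15, the range that holds the middle 50% of the family and that was set after seeing the values, 63.6% of estimates were negative, the median was -0.07 and 3.69% fell, against 54.6%, -0.03 and 4.64% of all genes tested. With quantile normalization 50% of these genes were negative and their median was 0, while the median of the family was -0.12.

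Promoters of the family were read for motifs of 3 factors tied to nuclear genes of mitochondria, since nearly all members had estimates of the same sign. RefSeq windows on GRCm38.p6, from 250 bases before to 50 bases after the start of a gene, were found for 69 of the 78 genes. The cores searched on both strands were GCGCA and GCGC with any 1 base between them for NRF1, CCGGAAG for the ETS family that includes GABPA, and AAGATGGCG for YY1, each counted separately whether or not matches overlapped. The NRF1 core was in 13 member genes, or 18.8%, against 10.2% of the 11297 tested genes with a window. The ETS core was in 26, or 37.7%, against 17.8%. The YY1 core was in 8, or 11.6%, against 3.18%. In all 41 of the 69, or 59.4%, held at least 1 of the 3 cores, against 27.7% of tested genes and 15.1% of all 27025 genes of the table. By subunit, large and small, the NRF1 core was in 23.3% and 11.5% of genes, the ETS core in 34.9% and 42.3%, and the YY1 core in 9.3% and 15.4%, differences that were not tested. A match is only a match of letters in this window.

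Differences in expression were set beside the matches as a description, with no test. The median difference was -0.18 over 13 genes with the NRF1 core and -0.17 over 55 without. It was -0.16 over 25 with the ETS core and -0.18 over 43 without, and -0.24 over 8 with the YY1 core and -0.16 over 60 without. The bases before the start of 3 genes are shown to set side by side the member with the largest difference, a stalk gene, and the member with the lowest p. NRF1 matches are in capitals, 91 bases before the start of Mrps21 (chr3:95871515-95871764, minus strand) and 81 before that of Mrpl12 (chr11:120484387-120484636, plus strand), and Mrpl1 (chr5:96209865-96210114, plus strand) has no match, all on GRCm38.p6 and read towards the gene.
Mrps21: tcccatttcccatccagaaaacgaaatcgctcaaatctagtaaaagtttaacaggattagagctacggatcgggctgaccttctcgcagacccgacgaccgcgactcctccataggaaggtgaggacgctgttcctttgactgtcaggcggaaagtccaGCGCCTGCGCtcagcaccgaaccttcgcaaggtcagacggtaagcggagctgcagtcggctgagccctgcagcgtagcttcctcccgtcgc
Mrpl12: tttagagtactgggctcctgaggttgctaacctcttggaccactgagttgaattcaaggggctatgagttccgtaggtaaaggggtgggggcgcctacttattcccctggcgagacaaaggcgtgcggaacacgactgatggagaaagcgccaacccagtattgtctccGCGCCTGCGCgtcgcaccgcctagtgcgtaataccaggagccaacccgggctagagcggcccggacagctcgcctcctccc
Mrpl1: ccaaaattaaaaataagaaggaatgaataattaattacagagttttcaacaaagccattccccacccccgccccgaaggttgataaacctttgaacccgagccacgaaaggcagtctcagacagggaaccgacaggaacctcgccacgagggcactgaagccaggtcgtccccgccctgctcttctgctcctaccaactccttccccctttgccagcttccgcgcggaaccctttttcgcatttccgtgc

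Some of these genes start near a neighbour that points the other way. A gene on the opposite strand started within 1000 bases before the start of 26 of the 69 members with a window, and 23 such neighbours were tested. How common such neighbours are over all genes was not counted. Of the 23, 1 fell, 0 rose and 17 had negative estimates, where 4.64% of all genes fell and 54.6% were negative. Their median was -0.11, against -0.15 for the members beside them, without Mrpl21, which had no value. Mrpl46 and Mrps11 are members and count as each other's neighbour. The neighbour that fell was Twnk, which starts 116 bases from Mrpl43. Mrpl43 itself was at 5.39, 5.47, 5.51 and 5.02 on the controls and 5.22, 5.05, 5.09 and 5.15 with cinacalcet, overlapping through control 4, with a difference of -0.22 ± 0.11 (SE, adjusted p = 0.25). Mrpl46 and Mrps11, a large and a small subunit gene, start 42 bases apart and differed by -0.07 ± 0.08 (SE, adjusted p = 0.596) and -0.24 ± 0.09 (SE, adjusted p = 0.142). Mrpl49 starts 192 bases from Fau, a gene of the cytosolic ribosome, and their estimates had opposite signs, -0.30 ± 0.08 (SE, adjusted p = 0.0684) and 0.16 ± 0.08 (SE, adjusted p = 0.208). Over the 26 members the starts lay from 8 (Mrps26) to 935 (Mrpl41) bases apart. The stretches between starts are shown for the first 2 pairs, chosen after the values were seen. They are at chr19:45006443-45006557 (minus strand, towards Mrpl43) and chr7:78783090-78783130 (plus strand, towards Mrps11) on GRCm38.p6, with ETS cores in capitals.
Twnk to Mrpl43: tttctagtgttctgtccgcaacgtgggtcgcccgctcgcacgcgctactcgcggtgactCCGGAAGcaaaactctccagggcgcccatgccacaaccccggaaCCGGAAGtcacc
Mrpl46 to Mrps11: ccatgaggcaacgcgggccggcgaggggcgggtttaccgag

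Mrps6, the member with the largest positive estimate, begins 14 bases after the start of Slc5a3 on the same strand. Slc5a3 encodes a sodium-coupled inositol transporter that kidney cells use against osmotic stress, and it was looked at after its neighbour's values were seen. Slc5a3 was at 3.00, 3.26, 3.55 and 3.79 on the controls and 3.51, 3.92, 3.84 and 3.23 with cinacalcet. Its groups overlapped widely, and its difference was 0.23 ± 0.21 (SE, adjusted p = 0.51). The 250 bases before the start of Slc5a3 (chr16:92058072-92058321, plus strand, GRCm38.p6) lie before both genes and hold none of the 3 cores.
Slc5a3 and Mrps6: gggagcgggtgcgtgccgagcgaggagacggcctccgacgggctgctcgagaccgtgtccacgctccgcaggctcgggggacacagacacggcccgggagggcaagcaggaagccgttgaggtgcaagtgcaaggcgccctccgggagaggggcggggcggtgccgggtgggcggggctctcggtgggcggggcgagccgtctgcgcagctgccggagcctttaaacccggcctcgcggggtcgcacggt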

How the data were processed

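RNA of 8 mouse kidney samples, 4 control and 4 cinacalcet, was measured on single-colour Agilent arrays of 62976 spots, with groups and replicate numbers from the sample titles. The authors deposited scanner output with spot intensity on a linear scale, background-corrected by Agilent Feature Extraction 11.0.1.1 per the file headers, while the submitters' processing notes name version 9.5. No normalization between arrays is recorded there. No spot was saturated.

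Control spots were dropped, as were 118 to 147 outlier spots per array. After averaging the spots of each probe, log2 was taken, and the log2 of each array's 75th percentile (202.9 to 257.1) was subtracted. A RefSeq table of assembly GRCm38.p6 named 27235 of 55681 probes with 1 gene, 0 with several and 28446 with none. The array's own annotation is on another build, so coordinates are given only for promoter windows. A probe had to be well above background on 4 or more of the 8 arrays, and the brightest stood for its gene, which left 14209 genes. Groups were compared with lmFit and eBayes of limma 3.58.1 under R 4.3.3, without covariates, with Benjamini-Hochberg adjustment over all 14209 genes and a threshold of 0.05. Symbols of 6 pseudogenes were left out, and 0 of them had a probe.

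The members, the lists and the alternatives were chosen with earlier results of these data known. Genes given in full were every member past the threshold, the 3 largest positive and the 3 largest negative differences, 9 members fixed by role (Mrpl12, Mrps12, Mrpl58, Mrpl44, Mrps22, Mrps36 and the 3 Mrps18 genes), genes whose probes differed by over 0.5, and from related lists the genes past the threshold or else the 2 with the lowest p. Mrps35, the dimmer probes of Mrps7 and Mrpl15, neighbours at the promoters and Slc5a3 were named after their values were seen. Alternatives were other normalizations, normexp with an offset of 50 (on the median signal, which the files hold), other filters and probe rules, other variance settings, weights per array, a block for the replicate number, for the row or column of the slide or for Y-linked signal, fits within slide rows or to the arrays with Y-linked signal, and leaving out each array. Slide and scan time were the same for all arrays.

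Tested on simulated data for cinacalcet against control with 14209 genes, recovery was 30% for a log2 change of 0.5, 80% for 1, 92% for 2 and 98% for 3, with 5 unchanged genes called. The changed genes were drawn at random from all genes tested, whose median standard error was 0.12, against 0.09 in the family. Noise was drawn separately for each gene and array, so the simulation held no shift shared by the genes of an array, such as that of control 4.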

Additional observations from a re-analysis of the deposited data

Results flagged for a closer look

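Among 184 sets of 4 arrays (87 genes and the family medians, each in both groups), 20 held an array far from the other 3, where chance gives about 1 in 20. In 16 of the 20 that array was control 4, an array without Y-linked signal. Control 4 stood far from the other controls in 14 of the 77 family genes, or 18.2%, against 9.46% of all genes tested, and was the low array each time.

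In the large subunit control 4 was at 2.73 for Mrpl10 (other controls 3.11 to 3.17), 3.42 for Mrpl15 (3.54 to 3.56), 3.03 for Mrpl17 (3.31 to 3.35), 2.52 for Mrpl32 (2.88 to 2.94), 3.37 for Mrpl36 (3.81 to 3.84), 4.38 for Mrpl41 (4.67 to 4.70) and 3.42 for Mrpl50 (3.55 to 3.57). In the small subunit it was at 0.38 for Mrps5 (1.08 to 1.14), 2.08 for Mrps9 (2.44 to 2.45), 3.00 for Mrps15 (3.19 to 3.21), 0.23 for Mrps27 (0.50 to 0.53), 4.46 for Mrps28 (4.86 to 4.93), 3.06 for Mrps30 (3.37 to 3.41) and 5.07 for Mrps33 (5.42 to 5.49). Outside the family it was at 3.51 for Ptcd3 (3.75 to 3.80) and -0.55 for Taco1 (-0.07 to 0.01).

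The other 4 were cinacalcet arrays: cinacalcet 2 at 5.09 for Mrpl11 (5.11 to 5.12), cinacalcet 4 at 4.48 for Mrpl13 (4.39 on the others) and at 3.35 for Mrps17 (3.27 to 3.28), and cinacalcet 1 at -0.32 for Vars2 (-0.58 to -0.55).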

How the results depend on the processing

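The count of genes that fell was 5. It was 1 with no filter on dim probes, where 20657 genes shared the adjustment and 1.02% of them fell. It was 3 with slide row as a block, where 3.78% of all genes fell. It was 0 with slide column as a block and within either slide row (4 arrays each). In these fits 9, 33 and 1 members were lower at an unadjusted p under 0.05 in limma. At that p 3461, 3859 and 1068 of all genes passed in either direction. Column 1 held only cinacalcet arrays and column 4 only controls, so the column block compares the groups within columns 2 and 3 alone. Controls 2 and 4 and cinacalcet 1 and 4 add nothing to its difference. With a block for Y-linked signal 9 members fell, where 10.4% of all genes did. With array weights 50 fell and 2 rose, with 24% of all genes lower and 14.2% higher, and control 4 had the lowest weight, 0.219. Leaving out single arrays gave 0 to 39 lower and 0 to 1 higher, the highest without control 4. The median of the family ran from -0.26 (array weights and slide column block) to -0.09 (within slide row 2), and it was -0.12 with quantile normalization. Within slide row 2, 58 of 77 estimates were negative, against 51.6% of all genes.

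The replicate numbers gave no clear sign of pairing: a correlation measure of same-numbered arrays gave 0.34, -0.54, -0.36 and -0.56. By this measure the best match carried the same number for number 1 only. The values are not correlations of the levels themselves, which were 0.971 or higher between any 2 arrays. Whether the numbers mark pairs is not settled by them. With the replicate block 0 members fell and 0 of all 14209 genes passed. At an unadjusted p under 0.05 in limma 12 members were lower, where 2869 of all genes passed in either direction.

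The difference between the subunit medians was 0.02 with quantile normalization with or without normexp, 0.01 with array weights and within slide row 2, and 0 with no filter, the mean of probes or the slide column block. It was -0.02 to 0 when single arrays were left out. For the 19 genes named, 341 refits kept the direction and the side of the threshold, 63 lost a call, 27 gained it and 6 changed direction, none of the 6 past the threshold: Mrps18b was at 0.02 with quantile normalization and with a block for Y-linked signal, 0.03 within slide row 2 and between -0.19 and 0 when single arrays were left out (0 without control 2), and Mrps25 at 0.15 with the mean of probes and 0.02 with the slide column block.

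In the simulation over all genes, log2 changes of 0.5 were mostly missed, and smaller ones, such as those of the family, were not simulated. The labels tie no array to an animal, and 3 arrays go against the stated sex.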
